A study of Mus musculus with 6 samples.

Results

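The chromatin binding of hnRNP UL1 after 4 h of lipopolysaccharide (LPS) was compared with that in unstimulated cells. The comparison covers the peaks whose nearest gene has an Ensembl ID below ENSMUSG00000027620, the ID at which the deposited 4 h table breaks off. These were 2225 of the 8425 peaks at 0 h and 9045 of the 9046 complete rows at 4 h, out of 18624 complete rows in the series. They named 3420 genes, of which 3405 were placed as protein-coding genes of the mouse build GRCm38.p6.

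Cells were RAW 264.7, an established mouse macrophage line. The 0 h culture is labelled untreated and the 4 h culture received LPS at 100 ng/ml, and the labels name no other treatment or genotype. Chromatin was prepared with an enzymatic ChIP kit, and the fragments bound by hnRNP UL1 were pulled down with a Proteintech antibody and sequenced. Each time has 1 ChIP library and 1 input library, and the inputs were not analysed here. With 1 library per time the design allows no test, and differences between cultures cannot be told apart from differences between times.

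LPS is a component of the outer membrane of Gram-negative bacteria. Macrophages sense it through Toll-like receptor 4 (TLR4), whose adaptors and kinases activate NF-kB, MAP kinases and interferon regulatory factors, and these switch on cytokine, interferon-response and metabolic genes. hnRNP UL1 is a nuclear protein of the heterogeneous nuclear ribonucleoprotein group, which bind newly made RNA and act in its splicing, processing and export. hnRNP UL1 also takes part in the response to DNA double-strand breaks.

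The tables give each peak as a point 2 bp wide with its nearest gene, and no height, enrichment or read depth. A peak is therefore either listed or not, and how far the number of peaks follows the depth of a library was not tested. The 4 h list was 4.07 times as long as the 0 h list over the compared IDs, and how far the gains described below follow from this difference in length was not tested. Shares of each list are given beside counts, with exact 95% intervals that cover counting error only. Peaks that lie close together share their source, which makes the intervals narrower than they should be. Of 12 macrophage marker genes 6 were compared, with 20 peaks before LPS and 39 after. Ctsb alone held 16 of the 20 and 17 of the 39. Of 12 T and B cell markers 4 were compared and held 3 and 4, and of 10 neuronal and 10 hepatocyte markers 1 each was compared and held 0 and 1. Peaks are not expression and do not check the cell type.

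A peak was assigned to every gene whose span, extended by 5 kb upstream, held its point. A gene was said to have gained peaks when it had 0 at 0 h and at least 1 at 4 h, to have kept them when it had at least 1 at both times, and to have lost them when it had at least 1 at 0 h and 0 at 4 h. By this count 1882 genes gained peaks (55.3% of the 3405), 861 kept them (25.3%) and 295 lost them (8.66%). The other 367 genes were named by a peak that lay outside the counted region. By rows that name the gene as nearest, at any distance, 2089 genes gained (61.4%), 1039 kept (30.5%) and 277 lost peaks (8.14%). These 6 percentages are the background for every count of genes below. They are shares of genes that at least 1 peak names, not of all genes.

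Both ways of counting gave 1751 genes as gained, 806 as kept and 226 as lost. Of the 1882 gained genes, 131 (6.96%) were named by a 0 h row outside the counted region. A further check used 0 h peaks that name a gene outside the compared IDs, and 114 of the gained genes (6.06%) held such a peak. The same check could not be made for lost genes, because the 4 h list breaks off where those later IDs begin. A lost gene may therefore hold 4 h peaks that name a later gene ID and are missing here. Of the 295 lost genes, 69 (23.4%) were named by a 4 h row. This share was higher than the 6.96% of gained genes, but the 4 h list was 4.07 times as long. The part of list length in this was not tested. Most gained genes held few peaks: 1033 had 1 peak at 4 h and 144 had 5 or more. Among kept genes 530 had more peaks at 4 h, 262 had equal numbers and 69 had fewer, and 105 had more than 4.07 times as many, the ratio of the whole lists. The plot of peaks per gene shows these groups.

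**Figure D1:**
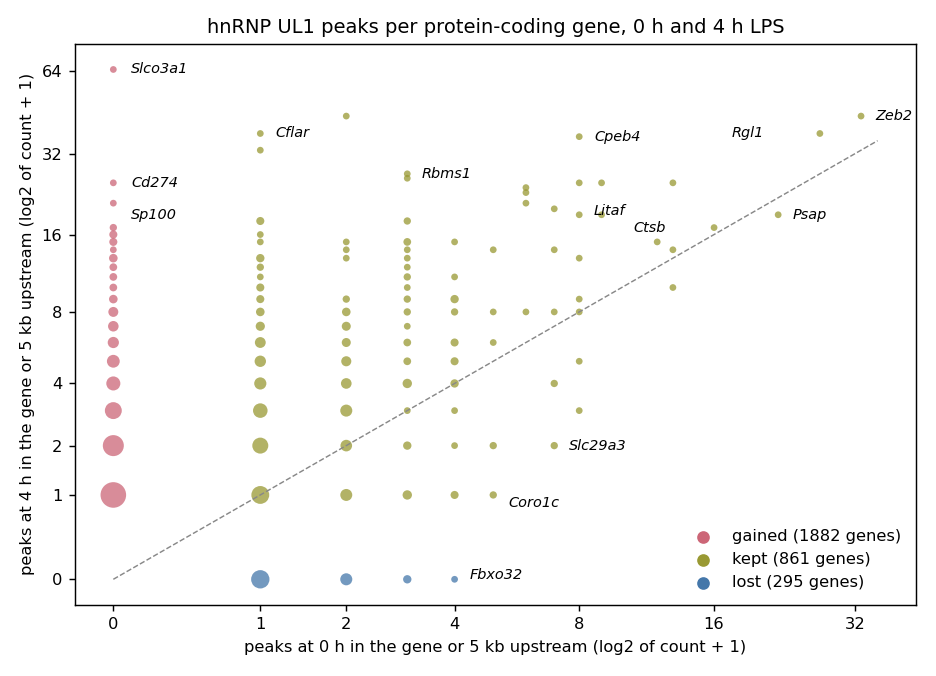
Peaks per protein-coding gene at 0 h (horizontal axis) and 4 h (vertical axis), both as log2 of the count plus 1 with ticks at the counts. Each dot is a pair of counts with its area growing with the number of genes, and the dashed line marks equal counts. Most dots lie on or above the line, Slco3a1 is highest at 65 peaks against 0, and the 295 lost genes on the bottom edge hold at most 4 peaks.

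Promoter sequences are shown for genes where a peak point fell within the 250 bases before or 50 bases after an annotated start, because they place the points relative to known sequence elements. They are RefSeq sequences of GRCm38.p6, read 5′ to 3′ on the gene's strand. Capitals mark the point with 10 bases to each side. The genes were chosen after their values were seen, as 2 that gained peaks in the counted region (Nfkbia and Il15ra), 1 kept gene with a 4 h point (Rel), 1 lost gene with a 0 h point (Rev1) and 2 genes with a point of each time (Gabpb1 and Timm22).
Nfkbia, chr12:55492598-55492897, minus strand: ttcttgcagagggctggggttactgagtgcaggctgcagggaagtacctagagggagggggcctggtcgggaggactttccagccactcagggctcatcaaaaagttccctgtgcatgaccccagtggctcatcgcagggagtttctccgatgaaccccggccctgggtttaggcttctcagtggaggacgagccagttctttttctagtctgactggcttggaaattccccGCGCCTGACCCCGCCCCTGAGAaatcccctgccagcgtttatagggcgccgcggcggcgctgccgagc
Il15ra, chr2:11705462-11705761, plus strand: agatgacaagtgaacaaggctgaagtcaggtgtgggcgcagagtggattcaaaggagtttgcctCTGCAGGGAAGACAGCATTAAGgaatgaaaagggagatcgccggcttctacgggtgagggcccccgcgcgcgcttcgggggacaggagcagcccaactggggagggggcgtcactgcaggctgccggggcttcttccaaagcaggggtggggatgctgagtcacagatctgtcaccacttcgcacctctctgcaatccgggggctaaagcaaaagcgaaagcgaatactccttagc
Rel, chr11:23770920-23771219, minus strand: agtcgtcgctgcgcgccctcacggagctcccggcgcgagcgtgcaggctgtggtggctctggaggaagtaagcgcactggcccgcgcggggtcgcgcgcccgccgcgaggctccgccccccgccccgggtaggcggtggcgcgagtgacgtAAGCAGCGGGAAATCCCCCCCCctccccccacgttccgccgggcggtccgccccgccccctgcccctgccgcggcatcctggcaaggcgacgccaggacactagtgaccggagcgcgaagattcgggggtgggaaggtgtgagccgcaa
Rev1, chr1:38129617-38129916, minus strand: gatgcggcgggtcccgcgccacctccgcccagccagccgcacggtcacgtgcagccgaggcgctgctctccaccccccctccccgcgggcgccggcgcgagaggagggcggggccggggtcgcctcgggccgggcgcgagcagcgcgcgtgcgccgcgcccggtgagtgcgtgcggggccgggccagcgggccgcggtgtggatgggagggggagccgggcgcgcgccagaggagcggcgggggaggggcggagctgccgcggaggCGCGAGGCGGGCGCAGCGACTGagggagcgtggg
Gabpb1, chr2:126675543-126675842, minus strand: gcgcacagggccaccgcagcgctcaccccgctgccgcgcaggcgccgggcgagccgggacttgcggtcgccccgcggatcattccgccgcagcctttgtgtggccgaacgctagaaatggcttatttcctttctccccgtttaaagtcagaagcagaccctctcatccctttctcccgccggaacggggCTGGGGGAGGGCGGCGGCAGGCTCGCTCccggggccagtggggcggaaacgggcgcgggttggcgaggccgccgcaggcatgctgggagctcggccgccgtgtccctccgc
Timm22, chr11:76406893-76407192, plus strand: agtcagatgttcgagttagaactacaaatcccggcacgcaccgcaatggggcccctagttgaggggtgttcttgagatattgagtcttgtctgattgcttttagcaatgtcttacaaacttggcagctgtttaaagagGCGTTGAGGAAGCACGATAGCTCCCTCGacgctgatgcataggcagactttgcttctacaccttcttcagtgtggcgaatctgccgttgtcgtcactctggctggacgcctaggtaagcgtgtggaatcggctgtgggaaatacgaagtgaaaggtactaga

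Counted from the start site as 0, the 4 h point of Nfkbia, which encodes the NF-kB inhibitor IκBα, lay at -8. By rows this gene had 1 peak at 0 h and 8 at 4 h. An NF-kB motif match on the other strand, GGGAATTTCC, lay at -29 to -20, just before the capitals. In Rel, the gene of an NF-kB subunit, the 4 h point at -89 lay inside a match, GGGAAATCCC, at -92 to -83. The window of Il15ra, which encodes the receptor chain that presents interleukin-15, had its 4 h point at -176 and an AP-1 match at -30 to -24. The 0 h point of Rev1, a translesion DNA polymerase gene, lay at 26 in a window with 51 CpG dinucleotides and no match to these motifs besides the GC box. In Gabpb1, which encodes a subunit of an ETS-family transcription factor complex, the 0 h point at -45 and the 4 h point at -51 lay within 1 stretch of capitals. The points of Timm22, a mitochondrial inner-membrane import gene, lay at -102 (0 h) and -96 (4 h). A motif match is a description of the letters and not a binding site.

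Windows with a point were compared with all windows of the compared genes. Of the 3405 genes 2679 had at least 1 window, 3558 in all, and 115 windows held a 0 h point, 217 a 4 h point and 16 a point of both times. The median GC content was 66.3% in windows with a 0 h point, 65.0% in those with a 4 h point and 60.7% in all windows. The median number of CpG dinucleotides was 28, 25 and 19. Windows bound at either time were thus richer in GC than the rest, and the 2 times were close to each other.

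Motifs were searched on both strands, and matches of different motifs may overlap. The NF-kB motif was found in 18 of 115 windows with a 0 h point (15.7%, 95% interval 9.55 to 23.6), in 34 of 217 with a 4 h point (15.7%, 11.1 to 21.2) and in 10.6% of all windows of the compared genes. Its share was equal before and after LPS. The core of the interferon-stimulated response element, GAAANNGAAA, was found in 3.48% at 0 h, 2.30% at 4 h and 2.95% of all. The AP-1 motif TGANTCA was found in 2.61% (0.541 to 7.43), 6.45% (3.57 to 10.6) and 5.93%, with overlapping intervals for the 2 times. The ETS core AGGAAG was found in 24.3%, 31.8% and 34.5%, TATAAA in 8.70%, 5.07% and 7.45%, CCAAT in 27.0%, 27.2% and 34.8%, and the GC box GGGCGG in 73.9%, 70.0% and 60.3%. Over the 32817 windows of the reference table, these 7 motifs in the same order were found in 8.46%, 3.43%, 7.81%, 35.4%, 13.6%, 37.4% and 35.6%.

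The genes that gained the most peaks held many points, though in several of them long stretches had none listed. Gained genes hold 0 at 0 h in the counted region by definition, and of the 18 genes with 20 or more 4 h peaks 3 were gained. The 10 gained genes with the most 4 h peaks are given next. Slco3a1 (ENSMUSG00000025790, chromosome 7, 74275418 to 74554780), which encodes an organic anion transporter, held 65 at 4 h. These fell in 2 stretches, 44 points up to 100 kb from the start and 21 from 186 kb to 263 kb, with none listed between. Peaks that name a gene beyond the compared IDs are not counted, so such a gap may hold peaks of other nearest genes. Cd274, the gene of the checkpoint ligand PD-L1, held 25 points from 5.68 kb to 25.4 kb, with a median spacing of 0.741 kb and none in its first 5 kb.

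Several of the other gained genes belong to interferon or LPS responses. Sp100 (ENSMUSG00000026222, chromosome 1, 85649948 to 85709998), which encodes a component of nuclear bodies and is induced by interferon, held 21. Jak2 (ENSMUSG00000024789, chromosome 19, 29251803 to 29313095), the kinase of many cytokine receptors, held 16, from -0.415 kb to 35.8 kb of the start in a gene of 61.3 kb. Aoah (ENSMUSG00000021322, chromosome 13, 20794103 to 21036617), whose enzyme removes acyl chains from LPS, held 16 up to 236 kb from its start. None of them was listed between 11.9 kb and 136 kb. Peli1, which encodes a ubiquitin ligase of TLR signalling, held 16. Epsti1, an interferon-induced gene, held 15.

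The remaining 3 of these 10 genes were Cers6, Pik3ap1 and Parp8. Cers6, which encodes a ceramide synthase, held 17, as did Pik3ap1, whose adaptor protein links receptors to phosphoinositide 3-kinase. The points of Cers6 reached 98.8 kb in a gene of 253 kb, with none listed between 13.3 kb and 75.1 kb. Parp8, an ADP-ribosyltransferase gene, held 16. By rows, Peli1 had 4 at 0 h and 27 at 4 h and Pik3ap1 had 1 and 17, so both counted as kept there. The other 8 had 0 rows at 0 h.

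Mx1 and Mx2, interferon-induced genes of antiviral GTPases, are listed as transcribed pseudogenes in the reference and stand outside the counts of coding genes. They lie near each other on chromosome 16 (97447035 to 97462906 and 97536081 to 97560901) and were named by 24 and 26 rows at 4 h and by 0 at 0 h. Their points formed unbroken series of 23 peaks over 21.7 kb and 31 peaks over 33.2 kb, the latter reaching into Tmprss2. This pair resembled Cmpk2 and Rsad2, neighbouring interferon-induced genes on chromosome 12, which held 13 and 11 peaks at 4 h and 0 at 0 h. Points were also divided by gene length, with points up to 5 kb upstream counted but that stretch left out of the length. Among protein-coding genes with 10 or more points Cmpk2 came first with 12.1 per 10 kb, followed by Cd274 with 9.62. Of the 13 points of Cmpk2 2 lay upstream of the gene, which raises its value, and of those of Cd274 0 did. These genes were singled out after their values were seen.

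**Figure D2:**
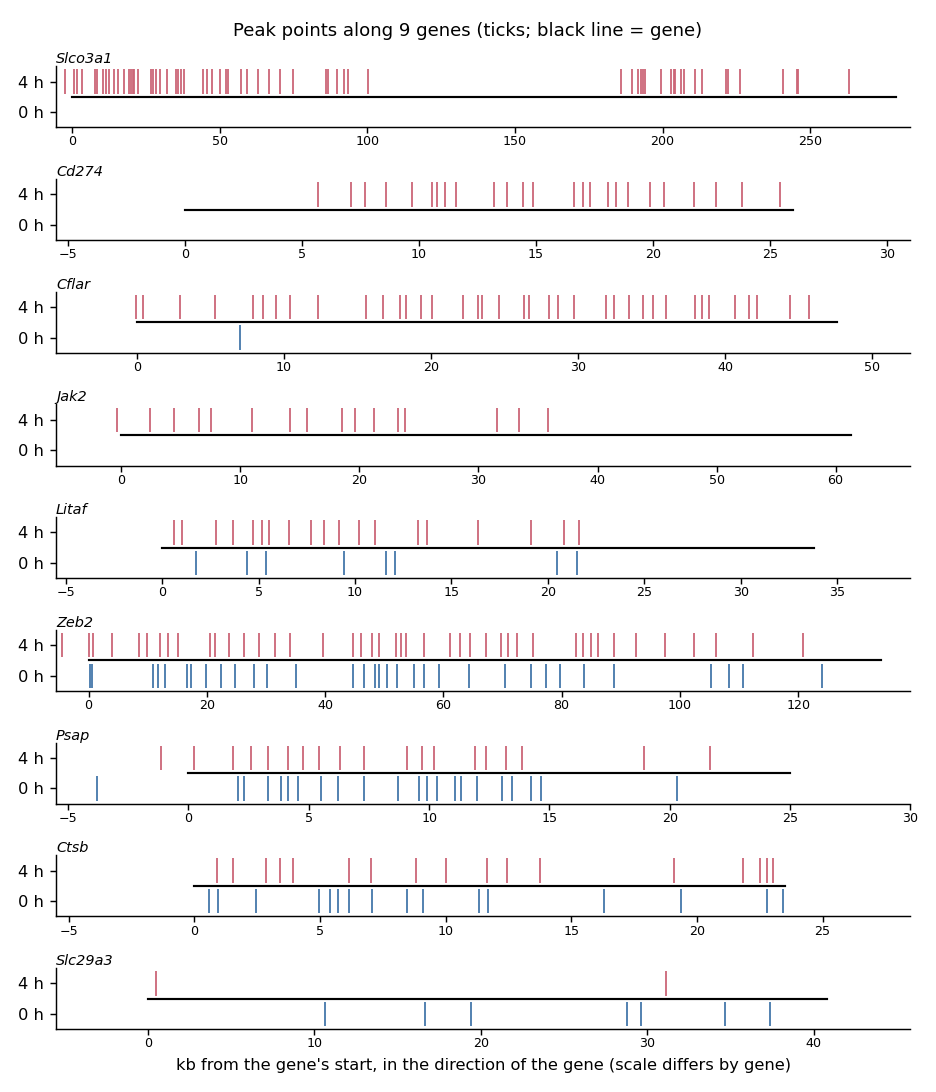
Peak points (ticks) along 9 genes against the distance from the gene's start in kb, with 4 h above and 0 h below the black line that marks the gene. Slco3a1, Cd274 and Jak2 hold ticks at 4 h alone and Cflar holds 38 against 1, whereas Zeb2, Psap and Ctsb hold similar rows of ticks at both times and Slc29a3 holds 7 at 0 h and 2 at 4 h.

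The genes that kept the most peaks were ranked by the lower of their counts at 0 h and 4 h. Their high counts before LPS follow from this ranking. Kept genes with few peaks at 0 h, such as Cflar (1 and 38) and Rbms1 (3 and 27), cannot enter it. Zeb2 (ENSMUSG00000026872, chromosome 2, 44983512 to 45117442), a transcription factor gene of myeloid cells, held 33 at 0 h and 44 at 4 h. Rgl1, which encodes an activator of Ral GTPases, held 27 and 38. Psap (ENSMUSG00000004207, chromosome 10, 60277628 to 60302600), the precursor of the saposins that activate lysosomal hydrolases, held 22 and 19. Ctsb (ENSMUSG00000021939, chromosome 14, 63122462 to 63145923), the gene of the lysosomal protease cathepsin B, held 16 and 17. Against the 4.07 times of the whole list, these 4 counts changed little, which the ranking favours.

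The other 6 differed more among themselves. Alcam, a cell adhesion gene, held 13 and 25, Tns3, which encodes a focal adhesion protein, 9 and 25, and Runx1, a haematopoietic transcription factor gene, 9 and 19. Fam129b (Niban2 in the reference) held 13 and 14, Zmiz1, a coregulator gene, 12 and 15, and Lrp12, a lipoprotein receptor family gene, 13 and 10. By rows Lrp12 had 6 and 8, so the order of its times depended on the counted region. Of the 10, Psap and Lrp12 were the ones with fewer points at 4 h.

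Kept genes differed in whether the same places were bound. In Psap 17 of 22 points of 0 h had a 4 h point within 500 bp, and in Ctsb 13 of 16. In Zeb2 it was 14 of 33, in Rgl1 9 of 27 and in Fam129b 5 of 13. In Runx1 and Tns3 it was 1 of 9 each, and in Zmiz1 0 of 12. How far near points follow from density was not tested: Psap and Ctsb were closely spaced, with medians of 0.732 kb and 0.919 kb between neighbours at 0 h, against 2.56 kb in Zeb2. Over all 861 kept genes, 269 had a 0 h point within 500 bp of a 4 h point.

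Genes that lost peaks held few to begin with. Of the 295, 252 had 1 peak at 0 h, and the highest was Fbxo32, the gene of the muscle ubiquitin ligase subunit atrogin-1, with 4. Of genes with exactly 1 peak at 0 h 30.3% lost it, of those with 2 or more 13.3% lost all, and all 36 genes with 5 or more kept peaks. Brd2, a bromodomain gene, Gyg, which encodes the glycogen primer glycogenin, Rev1, Trem2 and Esco1, a cohesin acetyltransferase gene, held 3 each. Il7r, the interleukin-7 receptor gene, Mxi1, a gene of the MYC network, Rac1, a small GTPase gene of the cytoskeleton, and 1700016C15Rik held 2 each. By rows Gyg, Rev1, Trem2, Esco1, Mxi1 and Rac1 had 0 at 4 h, whereas Fbxo32, Brd2, 1700016C15Rik and Il7r had 2, 1, 2 and 4 farther away. At 0 h Fbxo32 had 1 row and Il7r 3, so by rows the counts of both rose.

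The 3 points of Rev1 lay from -0.152 kb to 0.827 kb of its start, and those of Trem2, a surface receptor gene of tissue macrophages, from 0.241 kb to 3.86 kb. The 345 points of 0 h at lost genes had a median distance of 51.6 kb to the nearest 4 h point of the compared IDs. Such a point lay within 5 kb of 8 of them (2.32%). For all 0 h points the median was 4.95 kb. By definition a lost gene holds no 4 h point, so the contrast is not independent of the grouping.

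Some kept genes held more peaks at 0 h than at 4 h, and 10 with the largest excess are given here, with ties broken by rows and then by symbol. The transcription factor genes Pparg and Tfeb, along with Lrp12, Psap, Sipa1l2 and Zfand5, had the same excess of 3 as the last 5 of them. Slc29a3, a lysosomal nucleoside transporter gene, held 7 at 0 h and 2 at 4 h, as did Pdpk1, the kinase gene upstream of AKT. Myo1f, a class I myosin gene, held 8 and 3, and Mtss1, an actin-binding protein gene, 8 and 5. Coro1c, which encodes coronin 1C, and Raph1, which encodes lamellipodin, held 5 and 1 each. Dock2, an activator of Rac in leukocytes, held 5 and 2, Parvb, which links integrins to actin, and Atp6v0d1, a subunit gene of the vacuolar proton pump, 4 and 1 each. Cblb, a ubiquitin ligase gene, held 7 and 4. By rows all 10 again had more at 0 h.

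Position within genes differed between the times. Peaks in the authors' promoter class within 1 kb of a start made up 33.4% at 0 h (95% interval 31.4 to 35.4) and 19.9% at 4 h (19.1 to 20.7). Later introns held 22.0% (20.3 to 23.8) and 28.0% (27.1 to 29.0), the class from 1 to 3 kb 12.5% and 15.8%, and distal intergenic sequence 13.9% and 17.3%. First introns held 12.4% and 13.1%, and exons 1.44% and 1.82%. The number of promoter peaks was still higher at 4 h, 1801 against 743.

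By what the nearest gene did, the promoter class held 54.0% of the 0 h peaks of lost genes (48.4 to 59.5), 29.9% of the 0 h peaks of kept genes (27.8 to 32.0), 17.1% of the 4 h peaks of kept genes (16.0 to 18.2) and 22.5% of the 4 h peaks of gained genes (21.3 to 23.8). Introns together held 17.5%, 37.4%, 47.6% and 35.5%. The lower promoter share at 4 h was thus also found within the genes that had peaks at both times. Lost genes stood out by the opposite pattern, with peaks at the start and few in introns. This split counts genes by rows.

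**Figure D3:**
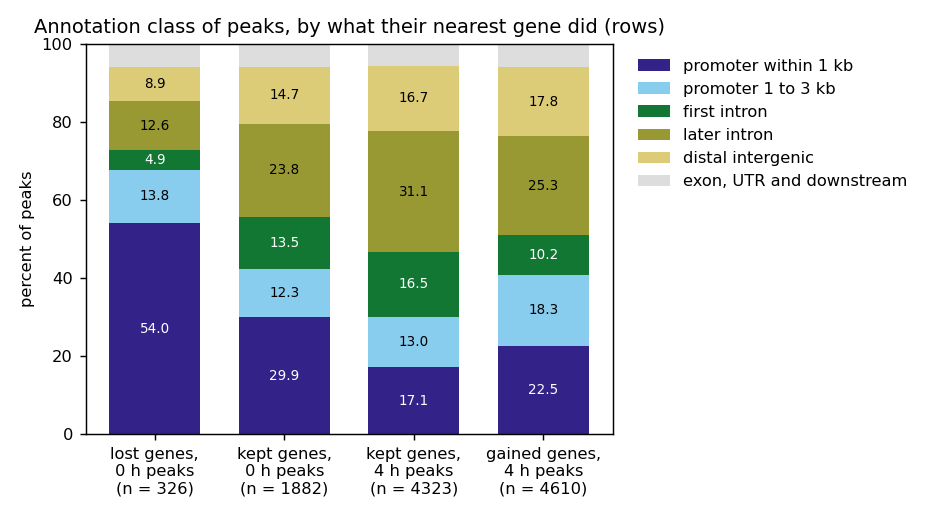
Percent of peaks (vertical axis) in each of the authors' annotation classes for the 0 h peaks of lost genes, the 0 h and 4 h peaks of kept genes and the 4 h peaks of gained genes, by rows. The class within 1 kb of a start takes 54.0% in lost genes and between 17.1% and 29.9% in the others.

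Along the gene body the same order was seen with points. Bodies were divided into 10 equal bins. The first bin held 47.3% of the 281 body points of lost genes at 0 h, 28.2% of the 1335 of kept genes at 0 h, 18.4% of the 2955 of kept genes at 4 h and 21.5% of the 3322 of gained genes at 4 h. The last 5 bins held 22.8%, 33.9%, 42.4% and 38.8%. Points at 4 h were therefore spread more evenly from start to end.

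**Figure D4:**
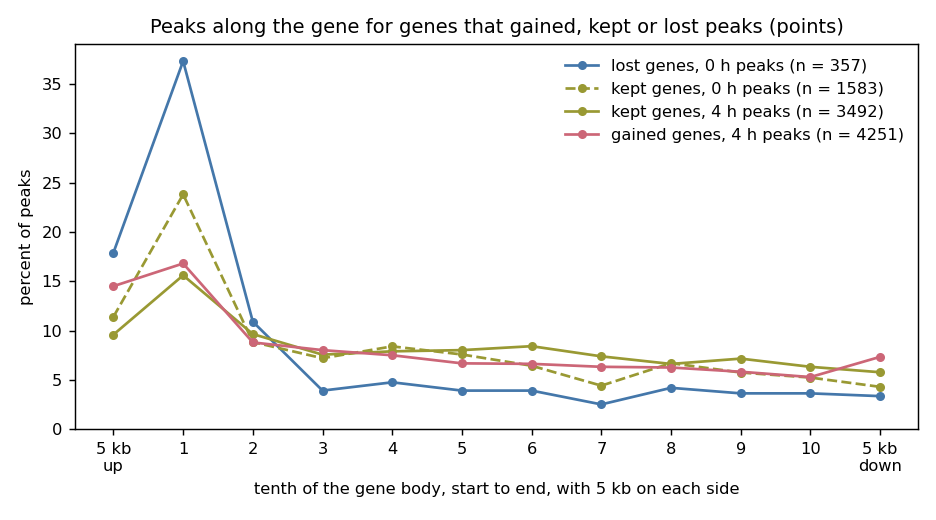
Percent of peak points (vertical axis) in 5 kb upstream, 10 equal bins of the gene body and 5 kb downstream (horizontal axis), for lost, kept and gained genes. All 4 lines are highest in the first bin, at 37.3% for lost genes, 23.8% and 15.6% for kept genes at 0 h and 4 h and 16.8% for gained genes.

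Of the 1039 genes that kept peaks by rows, 317 (30.5%) had a promoter peak at both times and 321 (30.9%) at neither, while 180 (17.3%) had one before LPS and none after and 221 (21.3%) the reverse. In 325 of them every 0 h peak was in the promoter class. Of these 325, 207 (63.7%) had a promoter peak at 4 h and 237 (72.9%) had a 4 h peak elsewhere. Cflar, whose product restrains caspase-8, is a case without a promoter peak at 0 h, with 1 point 7.0 kb from its start, and at 4 h it held 38 from -0.0870 kb to 45.7 kb, 6 of them in the promoter class.

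Gene length differed between the groups. The median was 22.3 kb in lost, 28.8 kb in gained and 48.5 kb in kept genes. Among genes up to 10 kb long 55.8% gained, 10.1% kept and 12.1% lost peaks, and among those of 100 to 200 kb 48.7%, 43.0% and 4.56%. Gene length thus moved with the groups, and its part in them was not tested. The ratio of 4 h to 0 h points lay between 3.43 and 4.36 in 6 classes of length and had no order.

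Exact places were shared less than genes. Of the 0 h peaks 18% (16.4 to 19.6) had a 4 h peak within 500 bp, and of the 4 h peaks 4.51% (4.09 to 4.96) had a 0 h peak. By class this was 26.0% (22.9 to 29.3) of 0 h promoter peaks, 16.4% in first introns, 12.3% (9.50 to 15.5) in later introns and 13.2% in distal intergenic sequence. Promoter peaks thus coincided more often than intronic ones. Within 100 bp of a 4 h point lay 145 of the 2225 points of 0 h, and 820 (36.9%) were more than 10 kb away.

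Peaks at 4 h stood more often in series. Series of at least 5 points with neighbours no more than 5 kb apart numbered 13 at 0 h with 122 peaks (5.48% of the list) and 149 at 4 h with 1267 peaks (14%). At 0 h they lay at Psap, Ctsb, Fam129b, Rgl1, Zeb2, Myo1f, Litaf, Pdpk1 and Gpr137b, which encodes a lysosomal membrane protein. The series of 7 at Myo1f and of 6 at Pdpk1 had 0 points of 4 h inside, among peaks of the compared IDs. The longest were 20 points at Psap at 0 h and 38 at Cflar at 4 h. The 4 h list was 4.07 times as long, and its part in the number of series was not tested.

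Genes were then read by function in 14 lists with at least 5 genes compared. For each list the share of all 4 h peaks was divided by the share of all 0 h peaks, and this share ratio was 0.956 (95% interval 0.908 to 1.01) over all 3405 genes. The median gene had 0 peaks at 0 h and 1 at 4 h. The ratio was above 1 in 8 of the 14 lists, and in 5 when the member with the most 4 h peaks was left out. Plain counts show the groups by role, and nothing is claimed as particular to a list.

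Of 22 cytokine, chemokine and receptor genes, 12 gained, 6 kept and 0 lost peaks, with 7 at 0 h and 47 at 4 h (share ratio 1.65, 0.742 to 4.33). Among 10 cytokine genes 6 gained, led by Csf1, the macrophage growth factor, with 0 and 6. Il1a had 0 and 3, and Il10, the anti-inflammatory cytokine, had 1 and 3, with 1 and 9 by rows. Il6 had 0 at both times in the counted region and 1 row at 4 h. The chemokine genes Ccl3 and Ccl4 had 0 and 1 and 0 and 2. Among receptors Il15ra had 0 and 12, 4 of them in the promoter class by rows, and the interferon-γ receptor genes Ifngr1 and Ifngr2 had 2 and 3 and 1 and 3. Without Il15ra the ratio was 1.23.

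In TLR signalling 12 of 24 genes gained, 8 kept and 1 lost peaks, with 17 at 0 h and 84 at 4 h (1.22, 0.716 to 2.18). Without Peli1 the ratio was 0.984. The receptor-associated genes Ly86, which encodes MD-1, and Ly96, which encodes the TLR4 partner MD-2, had 0 at 0 h and 8 and 2 at 4 h. Cd180, the receptor that pairs with MD-1, had 2 and 4. Of the kinases, Map3k1 had 2 and 7, Mapkapk2 0 and 7, and Map2k1 1 and 5. Traf1 had 0 and 5, Traf5 3 and 1 and Tab1, the lost member, 1 and 0. The brake Inpp5d, which encodes the phosphatase SHIP1, had 4 and 8.

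Of 11 NF-kB genes 4 gained, 6 kept and 1 lost peaks, with 9 and 40 (1.09, 0.522 to 2.56). Inhibitors held most of the 4 h peaks: Tnfaip3, which encodes A20, had 0 and 7, Tnip1 1 and 6, Nfkbia 0 and 5 and Nfkbie 1 and 4. Subunits were mixed, with Rel at 1 and 5, Relb at 0 and 2, Nfkb2 at 3 and 3 and Rela at 1 and 0. Tbk1, a kinase of the interferon arm, had 1 and 5. By rows Tnfaip3 and Nfkbia had 1 each at 0 h. Without Tnfaip3 the ratio was 0.902.

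Interferon genes held 8 peaks at 0 h and 79 at 4 h (2.43, 1.17 to 5.82), and 2.14 without Ifih1. Of the 15, 7 gained, 6 kept and 1 lost peaks. The 3 effector genes Cmpk2, Rsad2, which encodes viperin, and Ifi35 gained 13, 11 and 2. Of the transcription factors, Stat3 had 0 and 6, Stat5a 0 and 5 and Stat5b 2 and 6, whereas Irf1, Irf4 and Irf9 had 1 and 1, 1 and 2 and 1 and 1. The sensors split: Ifih1, which encodes MDA5, had 1 and 18, and Dhx58, which encodes LGP2, 1 and 0.

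Among 24 surface receptors 13 gained, 8 kept and 3 lost peaks, with 19 and 92 (1.19, 0.721 to 2.07). All 12 costimulation and checkpoint genes gained (9) or kept (3) peaks, from 3 at 0 h to 69 at 4 h. By rows the numbers were 10 and 104, with 7 gained and 5 kept. Cd40 had 0 and 11, Cd86 1 and 9, Pdcd1lg2, the gene of PD-L2 next to Cd274, 1 and 6 and Cd83 0 and 5. Of 12 adhesion and related genes 4 gained, 5 kept and 3 lost peaks, from 16 to 23 in all. By rows they had 14 and 41, with 1 lost. The lost members were the integrin genes Itgb1 and Itgb3 with 2 and 0 each and Itgb2 with 1 and 0, while Itgb5 had 4 and 6. By rows Itgb1 had 4 at 4 h and Itgb2 1, and Cd83 had 2 and 16. Without Cd274 the ratio of the whole list was 0.867.

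Effector and metabolic enzymes held 14 peaks at 0 h and 106 at 4 h (1.86, 1.06 to 3.52), and 1.58 without Aoah. Of the 29 genes 16 gained, 10 kept and 1 lost peaks. Of the subunit genes of the superoxide-producing NADPH oxidase, Cybb had 0 and 14, Ncf1 0 and 1 and Cyba 3 and 2. Nos2, the inducible nitric oxide synthase, had 0 and 7, and Acod1, which makes itaconate, 0 and 8. The hexokinase genes Hk3 and Hk2 had 1 and 8 and 0 and 4, and Abca1, the cholesterol exporter, 0 and 7. Alox5, which encodes 5-lipoxygenase, had 1 and 0, and Sod2 2 and 1. By rows Cybb had 1 at 0 h and counted as kept.

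Cell death and survival genes held 7 and 68 (2.39, 1.10 to 6.17), with 5 of 16 gained, 7 kept and 0 lost. Cflar alone held 38 of the 68, and without it the ratio was 1.23. Casp8, whose product Cflar restrains, had 1 and 5, Bcl2l11, which encodes the death protein BIM, 0 and 5, and Bcl2l1, a survival gene, 1 and 4. Stress and immediate early factors held 29 and 105 (0.891, 0.586 to 1.39). Cpeb4, an RNA-binding regulator of polyadenylation, had 8 and 37, Litaf, an LPS-inducible factor gene, 8 and 19, Atf3 4 and 9 and Hif1a 4 and 6. Fos, Hivep2 and Nr4a2 had 1 and 0 each, but a row at 4 h farther away named Fos.

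Macrophage identity and lysosome genes held a larger share of the 0 h list than of the 4 h list. The 22 identity genes held 77 at 0 h and 137 at 4 h (0.438, 0.329 to 0.586), with 8 gained, 11 kept and 2 lost, and the ratio was 0.520 without Zeb2. Their number of peaks was still higher at 4 h. The 11 transcription factor genes held 68 and 114 (0.412, 0.303 to 0.565), with Zeb2, Zmiz1, Runx1 and Arid5b at 33, 12, 9 and 7 at 0 h. The 11 receptor and marker genes held 9 and 23 (0.629, 0.280 to 1.54), an interval that includes 1. Arid5b had 7 and 20, Spi1, the gene of PU.1, 2 and 9 (0 and 8 by rows), Fcgr1, the high-affinity IgG receptor gene, 1 and 5 and Mertk, which takes up dying cells, 0 and 6. Pparg, a lipid-sensing nuclear receptor gene, had 4 and 1, Trem2 3 and 0 and Mrc1, which encodes the mannose receptor, 1 and 0.

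The 40 lysosome genes held 79 and 151 (0.470, 0.356 to 0.625), with 15 gained, 18 kept and 4 lost, and 0.570 without Psap. Psap and Ctsb held 22 and 16 of the 79 at 0 h, and the ratio without both was not computed. The 13 genes of the V-ATPase and its control held 20 and 45, with Rptor, the mTORC1 subunit gene, at 1 and 15, Atp6v1e1 at 0 and 7, Atp6v1b2 at 0 and 5, Atp6v0d1 at 4 and 1 and Tfeb, the lysosomal transcription factor gene, at 5 and 2. Npc2, which carries cholesterol out of lysosomes, had 2 and 13, Slc15a3 0 and 9 and Slc29a3 7 and 2. Hexa and Naglu, which encode lysosomal hydrolases, had 1 and 0 each, with 3 rows naming Naglu at 4 h.

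Chromatin and RNA genes held 39 and 107 (0.675, 0.464 to 1.00) and 33 and 102 (0.760, 0.509 to 1.16). Of 35 chromatin genes 6 lost all peaks (17.1%) and of 29 hnRNP and splicing genes 5 (17.2%), against 8.66% of all genes. Only genes with a 0 h peak can lose peaks, so these shares also follow how many members had one. Lost and kept genes numbered 6 and 15 in the chromatin list and 5 and 12 in the hnRNP and splicing list. Over all genes they numbered 295 and 861. By rows 4 chromatin genes and 5 hnRNP and splicing genes lost peaks. The chromatin losses included 4 of 13 activating genes: Brd2, Brd3, Cdk9, the elongation kinase, and Ncoa2 had 3, 1, 1 and 2 before LPS and none after. By rows Brd2 and Ncoa2 had 1 each at 4 h. Dnmt3a, which methylates DNA, had 7 and 14, Baz2b 3 and 15 and Crebbp 2 and 6. Of 13 hnRNP genes 5 gained, 5 kept and 3 lost peaks, from 9 to 23, with Raly at 0 and 5, Hnrnpll at 1 and 4 and Hnrnpa0, Hnrnpab and Hnrnph3 at 1 and 0 each. Of the 16 splicing genes Rbms1 had 3 and 27, Mbnl2 8 and 25 and Snrpd1, a core spliceosome gene, 2 and 0.

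The 17 DNA damage genes, where hnRNP UL1 has a known role, held 6 and 26 (1.07, 0.429 to 3.17), with 10 gained, 5 kept and 1 lost. None held more than 3 peaks at a time: Lig3, Xrcc6, which encodes Ku70, Ddb2 and Brca1 held 3 each at 4 h and Rnf168 was the lost gene. By rows 9 gained, 6 kept and 2 lost peaks, and the ratio was 0.830. Ddb2 had 1 row at each time and Xrcc6 had 1 and 2. The 8 housekeeping genes held 5 and 15 (0.738, 0.255 to 2.60), of which Ywhaz held 6 at 4 h. By rows it had 2 and 9.

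**Figure D5:**
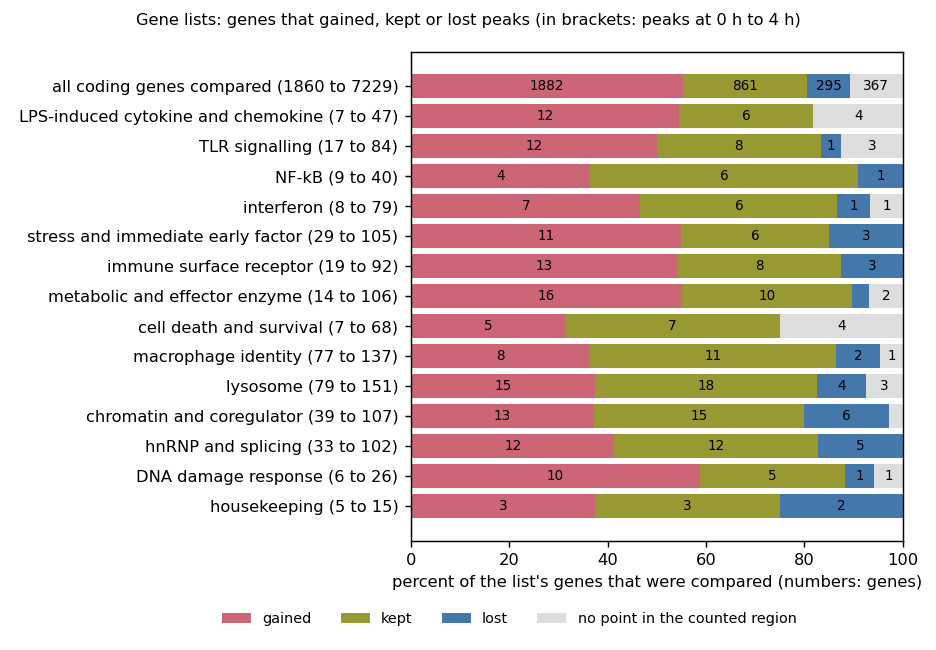
Share of each list's compared genes that gained, kept or lost peaks or had no point in the counted region (horizontal axis, percent; numbers are genes), with the list's peaks at 0 h and 4 h in brackets and all 3405 genes on top. Gained genes take between 31.2% and 58.8% of each list against 55.3% of all genes, and the cytokine and cell death lists have no lost gene.

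Gene families chosen by symbol and protein domains gave a similar range. The 81 solute carrier genes held 37 and 226 (1.5, 1.06 to 2.19), but 1.07 without Slco3a1, and 20 glycosyltransferase genes held 14 and 80 (1.41), but 0.889 without St3gal1, a sialyltransferase gene. Genes of Rab GTPases and their regulators numbered 32, with 16 gained, 12 kept and 0 lost, against 8.66% lost of all genes. By rows 1 of them lost peaks. They held 16 and 76 (1.17, 0.675 to 2.15), led by Rab1a at 2 and 8. The 18 genes of Ras, Arf and Rap GTPases and their regulators held 40 and 91 (0.560, 0.382 to 0.833), but the ratio was 1.00 without Rgl1. Phosphoinositide enzymes held 19 and 97, with Pik3r5 at 6 and 24 and Pip4k2a at 3 and 12. Of 42 mitochondrial respiration and ribosome genes 6 lost all peaks (14.3%) and 6 kept them, with 14 and 47 peaks in all.

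Domains were chosen after their values were seen, from the descriptions in the tables. The 33 genes with an SH2 domain, the module that binds phosphotyrosine, held 27 and 167 (1.52, 1.01 to 2.38) and 1 lost all peaks. The ratio was 1.94 without Tns3. The 80 genes with an immunoglobulin-like domain held 34 and 218 (1.58, 1.10 to 2.34), with 3 lost. The 146 protein kinase genes held 79 and 404 (1.26, 0.986 to 1.62), with 7 lost (4.79%) and 49 kept. The 47 genes with an RNA recognition motif held 40 and 131 (0.806, 0.562 to 1.18), with 7 lost (14.9%) and 17 kept. As only genes with a 0 h peak can lose peaks, lost genes are to be read beside kept ones, 295 and 861 over all genes. The 62 genes with a C2H2 zinc finger held 56 and 159 (0.698, 0.512 to 0.965), but the ratio was 1.23 without Zeb2.

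By chromosome the ratio of 4 h to 0 h peaks ran from 2.23 on chromosome 8 to 7.29 on chromosome 7, where it was 5.12 without the peaks of Slco3a1. Chromosome 8 had 61 and 136 peaks and chromosome 7 had 34 and 248. Relative to the whole lists, the share ratio was 0.548 (0.403 to 0.755) on chromosome 8, 0.620 on 5 and 0.730 on 15, and 1.79 (1.25 to 2.65) on 7 and 1.31 on 12. On the other chromosomes the interval included 1.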

How the data were processed

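hnRNP UL1 ChIP-seq peak tables of RAW 264.7 cells at 0 h and 4 h of LPS were compared, grouped by the sample titles. The submitters' processing notes list MACS2 2.1.0, BWA 0.7.12, CASAVA 1.8 and the build GRCm38 (mm10), and roles, thresholds and use of input are not given in the sources used here. Per the file headers the authors deposited each peak's position, annotation class, nearest gene and distance to its start, which matched the gene's start and strand within 1 bp in every row. Whether a point is a summit or a midpoint is not given.

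Genes were matched to RefSeq GRCm38.p6 by symbol and chromosome (3371) or by synonym (34); 15 were not placed, 7 of them with a calendar date as name. Promoter sequences came from RefSeq. The gene IDs were cut because the 4 h table breaks off inside a row. Shares have Clopper-Pearson intervals and share ratios exact intervals given the sum of both counts. Python 3.11.15 with pandas 2.3.3, SciPy 1.17.1 and matplotlib 3.10.9 was used, and counting was tested on simulated points. Named were the 10 gained genes with the most 4 h peaks, the 10 kept genes with the highest count at the time with fewer, the 10 lost genes with the most 0 h peaks, the 10 kept genes with the largest excess at 0 h, and from each list up to 4 members with the most peaks and 2 lost members. Further members are given to fill in roles and were chosen after their values were seen. Members and lists were chosen with earlier results of these data known. Some members of the lists are not reported here by name.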

Additional observations from a re-analysis of the deposited data

How the results depend on the processing

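With 1 library per time no replicate could be left out. No paired analysis was possible because each group holds 1 library and no result comes from a test. Counts of gained, kept and lost genes stayed within 1.5 times the reported ones under rows, other counted regions and merged points. They also did so with the tables' gene spans and with all peaks of both lists. In that last setting the 0 h list grew from 2225 to 8425 peaks, but the 4 h list only from 9045 to 9046. It gave 310 lost genes and could not show 4 h peaks of later gene IDs, which are missing. Requiring at least 2 peaks left 849 gained, 229 kept and 43 lost genes, because fewer peaks qualify, and stopping at the gene ID where the 10 h list ends left 1099, 513 and 182, because fewer genes are compared. With promoter classes up to 3 kb the shares were 45.9% at 0 h and 35.7% at 4 h, in the same order. Within 200 bp 9.93% of 0 h peaks were near a 4 h peak and 2.48% of 4 h peaks near a 0 h peak, and within 1000 bp 26.1% and 7.16%. The ratio of peaks lay between 3.95 and 4.07. Leaving out the member with the most 4 h peaks left 5 lists of 14 with a share ratio above 1, and counting rows left 7. Of 111 named genes 95 were in the same class by rows. The chromosome 7 ratio without Slco3a1 and families without their top member were added after seeing the data. Read depth and peak heights are unknown, so a peak absent from a list may lie below its threshold.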
